A study of Schizosaccharomyces pombe with 4 samples.

Results

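The genes described here are 10 members of the fission yeast G1/S transcription programme, chosen by identifier from 5133 genes listed in at least 1 of 4 RNA-seq libraries. Regulators were cdc10 (SPBC336.12c), res1 (SPBC725.16), res2 (SPAC22F3.09c), nrm1 (SPBC16A3.07c) and yox1 (SPBC21B10.13c). Targets were cdc22 (SPAC1F7.05), cdc18 (SPBC14C8.07c), cdt1 (SPBC428.18), cig2 (SPAPB2B4.03) and mik1 (SPBC660.14). All 10 were listed in every library and passed the filter on low counts. In the ASM294v3 annotation 7 lie on chromosome II and 3 on chromosome I.

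The RNA came from Schizosaccharomyces pombe in mid-log growth at 30 °C in YEA, a rich medium. Both wild type (WT) libraries are labelled with strain KOR3006, and Y41F libraries 1 and 2 with strains SPBB297 and SPBB298. The labels do not say which protein carries Y41F. From what is known of the study it is a tyrosine-to-phenylalanine change in histone H3, and no other allele is given. There were n = 2 libraries per group, and the labels do not state that the WT libraries came from separate cultures. The p-values therefore weigh the difference only against the variation between libraries of the same group, moderated over all genes. That variation may be technical in part. Any other difference between the WT strain and the Y41F strains cannot be told apart from Y41F.

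MBF is the transcription factor that switches on genes needed for DNA replication as cells pass from G1 into S phase. Its core holds Cdc10 and the DNA-binding proteins Res1 and Res2. Nrm1 and Yox1 bind the complex and repress it once S phase is under way, and both genes are themselves transcribed by MBF, which closes a negative feedback loop. Cdc22 is the large subunit of ribonucleotide reductase, Cdc18 and Cdt1 load the MCM helicase at origins, Cig2 is the main S-phase cyclin, and Mik1 is a Wee1-like kinase that restrains Cdc2. In fast-growing fission yeast G1 is short and most cells are in G2, so a log-phase library averages over cells of which few are at the peak of the programme.

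Depth was similar across libraries, from 20845572 to 23616464 expected counts, and the 10 genes together took between 0.1433% and 0.1562% of them. Single members had between 702 counts (yox1 in WT library 2) and 18024 counts (cdc22 in Y41F library 1). Libraries of the same group differed by more than sampling noise, with a chi-square per degree of freedom of 43.3 for WT and 63.6 for Y41F.

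Levels were compared between genes as the deposited FPKM, which is scaled for length. In WT the regulators and the targets had overlapping ranges rather than separate tiers. The most abundant member was the target cdc22, at 286 ± 13.8 FPKM (SD, n = 2), above about 90% of listed genes (percentile 90.4 and 89.6 in the WT libraries). The corepressor gene nrm1 was next at 158 ± 0.495 FPKM, followed by cig2 at 69.9 ± 1.68, res1 at 64.6 ± 2.86, cdc18 at 62.6 ± 6.93 and yox1 at 56.7 ± 0.339. The median of all genes was 54.7 and 58.4 FPKM in the WT libraries, so this middle set lay near it.

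Below them were cdt1 at 43.0 ± 6.41 FPKM, cdc10 at 31.8 ± 4.26, mik1 at 29.9 ± 3.39 and res2 at 28.95 ± 0.255. The transcript of the core subunit Cdc10 was thus among the lowest of the set. The WT libraries of neighbours in this order overlapped for res1 and cdc18, for cdc10 and mik1, and for mik1 and res2. Other neighbours were separate. The median of the 5 targets over that of the 5 regulators was 1.20 and 1.01 in WT and 0.900 and 0.961 in Y41F. These medians are single genes: that of the regulators is yox1 in every library, and that of the targets is cdc18 in both WT libraries and Y41F library 2 and cdt1 in Y41F library 1. The ratio thus mostly sets cdc18 against yox1 and does not stand for either set.

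**Figure D1:**
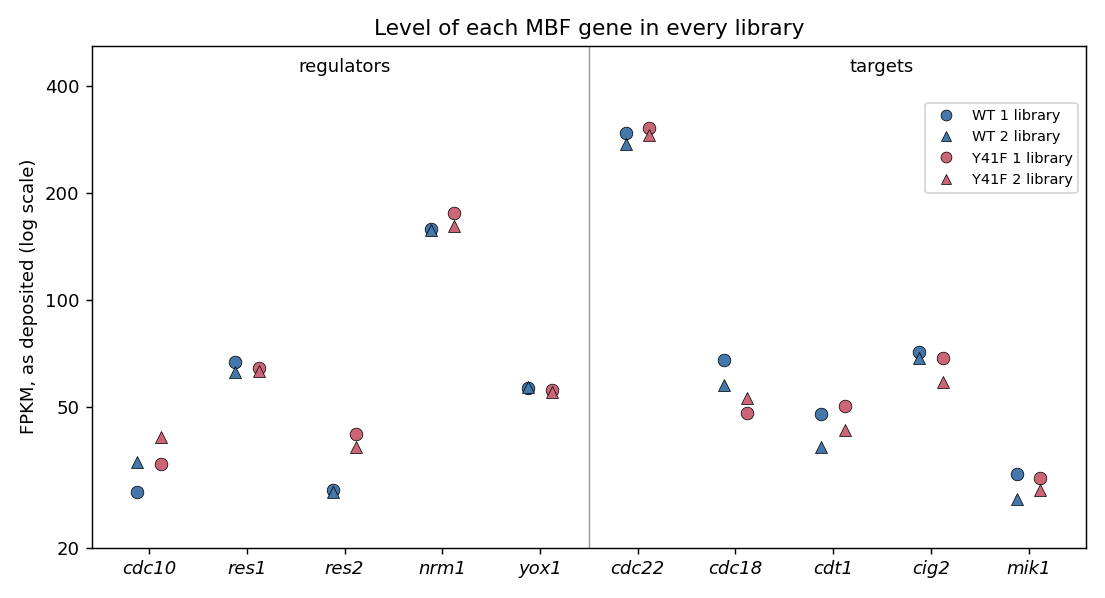
Deposited FPKM (log axis) of the 10 genes, with 1 point per library; circles are libraries numbered 1, triangles libraries numbered 2, blue WT and red Y41F. The target cdc22 is highest and nrm1 next in every library, and res2 and cdc18 are the genes whose groups stand farthest apart.

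In Y41F the top of the order was as in WT, with cdc22 at 299 ± 10.4 FPKM, nrm1 at 168 ± 10.2, cig2 at 63.7 ± 7.02 and res1 at 63.6 ± 0.898. Below them yox1 had 55.4 ± 0.665 FPKM, cdc18 50.3 ± 3.46, cdt1 46.6 ± 5.15, res2 40.1 ± 2.39, cdc10 37.6 ± 4.64 and mik1 30.3 ± 1.70. The gene res2, last in WT, stood above cdc10 and mik1 in Y41F, and cdc18, above yox1 in WT, stood below it. Overlapping neighbours in Y41F were cig2 and res1, cdc18 and cdt1, and res2 and cdc10.

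The question of the design was whether Y41F cells differed from WT. None of the 10 genes passed the test over all genes (edgeR quasi-likelihood, adjusted p under 0.05), beside 1 of 5076 genes tested, a background of 0.0197%. At an unadjusted p under 0.05 there were 2 members, res2 and cdc18, where the background was 6.70% of genes. DESeq2 also called 0 of the 10, against 1.32% of all genes, and limma on log2(FPKM + 1) called 0, against 0.0591% of all genes. The median log2 fold change (Y41F over WT) was -0.01 for the 10 genes, 0.05 for the regulators and -0.03 for the targets, beside a median of 0.00 (-0.0042) over all genes tested. Without TMM the median of the 10 genes was 0.0420 and that of all genes 0.0417, so the sign of both medians depends on the scaling.

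Groups did not overlap for 1 member higher in Y41F (res2), where 19.2% of all genes did so, and for 3 members lower in Y41F (yox1, cdc18 and cig2), where the background was 18.0%. On 10 genes, counts of this size are not read as a result about the members.

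**Figure D2:**
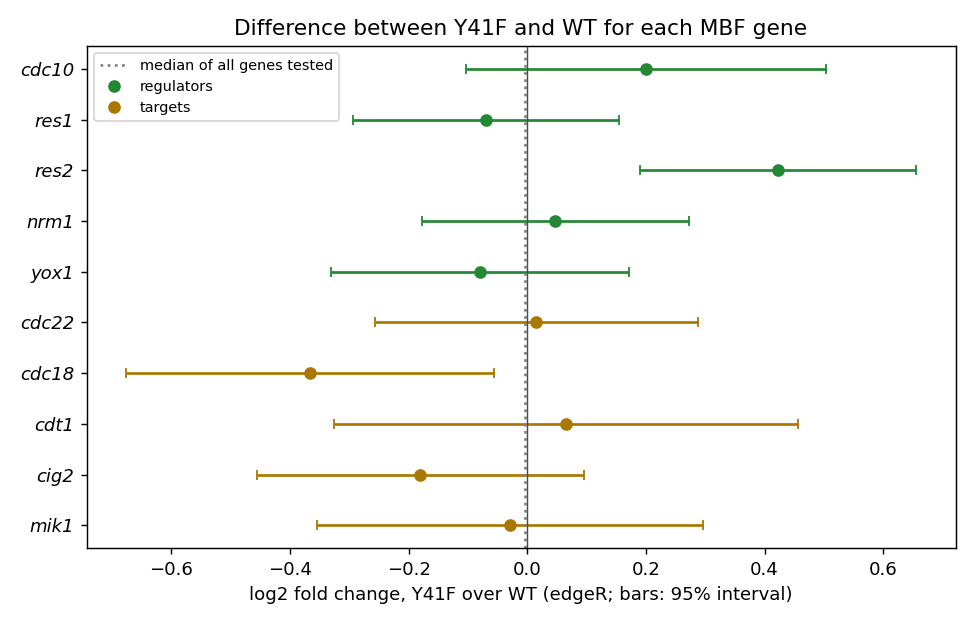
Log2 fold change of each gene, Y41F over WT, as fitted by edgeR, with its 95% interval; regulators are green and targets ochre, and the dotted line is the median of all genes tested. The intervals of res2 (0.19 to 0.66) and cdc18 (-0.68 to -0.06) leave out 0 before adjustment for the number of genes, and the other 8 include it.

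Of the regulators, res2 differed most. Res2 is the DNA-binding partner of Cdc10 that works with Res1 in the mitotic cycle and takes the larger part in meiosis. Its level, in TMM-scaled CPM (counts scaled to a common library size), was 61.2 and 57.3 in WT and 83.0 and 75.9 in Y41F. Both Y41F libraries lay above both WT libraries, by more than the spread within either group. The log2 fold change was 0.42 ± 0.09 (SE), a 1.34-fold higher level with a 95% interval of 1.14 to 1.58, and the gene ranked 64 of 5076 by p without passing (edgeR adjusted p = 0.371; DESeq2 adjusted p = 0.0934). Without Y41F library 2 it passed, with a log2 fold change of 0.49 (edgeR adjusted p = 0.0484). That fit holds a single Y41F library, which is assumed to vary like the WT pair, and it called 3.88% of all genes. Over all 12 alternatives the adjusted p ran from 0.0484 to 1.00 while the value stayed between 0.36 and 0.49.

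Its partner res1, the other DNA-binding subunit, had 136 and 121 CPM in WT and 124 and 121 in Y41F, with overlapping groups and a log2 fold change of -0.07 ± 0.09 (edgeR adjusted p = 0.909). The ratio of res2 to res1 within a library does not depend on the scaling between libraries. On the FPKM scale it was 0.437 and 0.460 in WT and 0.650 and 0.610 in Y41F. Res1 thus stayed the more abundant of the pair in all 4 libraries, and the groups were separate. With 2 libraries against 2 an exact two-sided permutation test cannot give a p under 0.333, so ratios carry no p. Of the ratios to cdc10, that of cdc18 was lower in both Y41F libraries (2.35 and 1.66 in WT, 1.39 and 1.29 in Y41F). That of yox1 was lower too (1.96 and 1.64 in WT, 1.63 and 1.34 in Y41F). Its groups were separated only by the small gap between WT library 2 and Y41F library 1. The other ratios to cdc10 overlapped. The ratio of nrm1 to yox1 was 2.80 and 2.77 in WT and 3.15 and 2.94 in Y41F.

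Because Res2 has a role in meiosis, markers of sexual differentiation were read beside it. Their summed level was 160 and 213 CPM in WT and 235 and 238 in Y41F, and of the 8 markers 7 passed the filter. Both Y41F libraries lay above both WT libraries for 1 of the 7, ste11, beside 19.2% of all genes. They lay below for 1, map2, beside 18.0% of all genes. The sum thus does not stand for the set. None was called by edgeR (1 had an unadjusted p under 0.05), and their median log2 fold change was 0.09, with 5 above 0 and 2 below. That median leaned on single libraries. Over the 7 or 8 markers tested in each fit, it was -0.12 when Y41F library 2 was left out and 0.50 when Y41F library 1 was, and 0.00 (-0.0044) and 0.36 when WT libraries 1 and 2 were left out in turn. The gene ste11, for the master regulator of mating, had 26.8 and 29.5 CPM in WT and 84.7 and 40.2 in Y41F, a log2 fold change of 1.15 ± 0.34 (edgeR adjusted p = 0.556; called by DESeq2, and by edgeR in the fit with Y41F library 1 alone, which called 3.88% of all genes). The meiotic regulator gene mei2 had 14.5 and 44.6 CPM in WT and 38.2 and 43.1 in Y41F, while spk1, for a kinase of the pheromone pathway, had a log2 fold change of 0.09 ± 0.23 and mam2, for a pheromone receptor, -0.01 ± 0.11. The meiosis genes mei4 and rec8 were low, between 4.39 and 8.62 CPM, mfm1, for a mating pheromone, had at most 0.690 CPM, and no marker was at 0. Their part in the difference in res2 was not tested.

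The core subunit gene cdc10 had 70.7 and 81.1 CPM in WT and 79.9 and 94.6 in Y41F. The groups overlapped, since WT library 2 lay above Y41F library 1. The log2 fold change was 0.20 ± 0.12, with a 95% interval of -0.10 to 0.50 (edgeR adjusted p = 0.811), and it was 0.07 without Y41F library 2 and 0.32 without Y41F library 1.

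Both corepressor genes differed little. For nrm1 the level was 170 and 161 CPM in WT and 179 and 163 in Y41F, overlapping, with a log2 fold change of 0.05 ± 0.09 and a 95% interval of -0.18 to 0.27. For yox1, which encodes a homeodomain protein, it was 34.9 and 33.3 CPM in WT and 32.6 and 31.9 in Y41F. Both Y41F libraries of yox1 lay below WT by a small margin, a log2 fold change of -0.08 ± 0.10 with an interval of -0.33 to 0.17. Neither passed (edgeR adjusted p = 0.943 and 0.909).

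Of the targets, cdc18 differed most. Cdc18 is the AAA+ ATPase, a relative of Cdc6 of other eukaryotes, that licenses origins with Cdt1. Its level was 124 and 101 CPM in WT and 83.3 and 91.3 in Y41F. All WT values lay above the Y41F values, though the WT libraries differed from each other by more than WT library 2 did from Y41F library 2. The log2 fold change was -0.37 ± 0.12, a fold of 0.776 with a 95% interval of 0.626 to 0.962, which did not pass (edgeR adjusted p = 0.664; DESeq2 adjusted p = 0.487). It was -0.20 without WT library 1 and -0.51 without WT library 2, and the adjusted p over all 12 alternatives lay between 0.150 and 1.00.

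Its partner in licensing, cdt1, had 66.9 and 51.3 CPM in WT and 66.9 and 56.9 in Y41F. The groups overlapped almost fully, with a log2 fold change of 0.07 ± 0.16 and an interval of -0.33 to 0.46 (edgeR adjusted p = 0.955). The FPKM of cdc18 over that of cdt1 was 1.42 and 1.50 in WT against 0.953 and 1.23 in Y41F, so this ratio was lower in both Y41F libraries, and cdc18 was the less abundant of the pair in Y41F library 1 alone. The deposited coding length of cdt1 is 1335 bases and that of the ASM294v3 annotation 1269, so its FPKM, but not a comparison between libraries, depends on the gene model.

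The cyclin gene cig2 had 92.5 and 84.7 CPM in WT and 84.5 and 71.9 in Y41F. The groups were separated only by the small gap between WT library 2 and Y41F library 1, and the log2 fold change of -0.18 ± 0.11 (interval -0.46 to 0.09) did not pass (edgeR adjusted p = 0.811). Leaving out a library in turn gave -0.07 (Y41F library 2), -0.11 (WT library 1), -0.24 (WT library 2) and -0.29 (Y41F library 1). The FPKM of cig2 over that of cig1, another B-type cyclin gene, was 1.75 and 1.50 in WT and 1.67 and 1.32 in Y41F, with overlapping groups.

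For mik1 the values were 59.8 and 48.3 CPM in WT and 55.2 and 50.7 in Y41F. The Y41F libraries lay between the WT libraries, and the log2 fold change was -0.03 ± 0.13, which turned to 0.02 without TMM and with FPKM in place of counts. The FPKM of mik1 over that of wee1, the kinase gene with the related role at mitotic entry, was 0.886 and 0.672 in WT and 0.787 and 0.643 in Y41F, so wee1 was the more abundant in every library.

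The most abundant target, cdc22, had 769 and 681 CPM in WT and 753 and 713 in Y41F. Again the Y41F values lay between the WT values, with a log2 fold change of 0.02 ± 0.11 and an interval of -0.26 to 0.29 (edgeR adjusted p = 0.985). The small subunit gene suc22 had 224 and 220 CPM in WT and 226 and 225 in Y41F, a log2 fold change of 0.02 ± 0.09. The large subunit transcript exceeded the small one 1.63- and 1.47-fold in WT and 1.58- and 1.50-fold in Y41F on the FPKM scale.

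**Figure D3:**
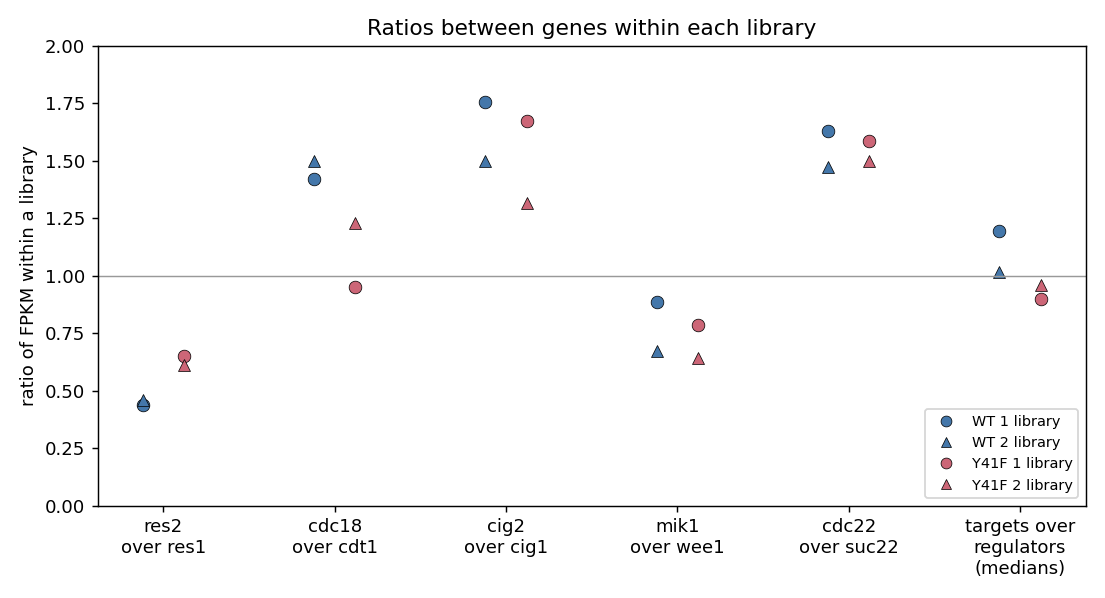
Ratio of FPKM between genes within each library; circles are libraries numbered 1, triangles libraries numbered 2, blue WT and red Y41F, and the grey line marks equal levels. For res2 over res1 the Y41F libraries are above the WT libraries. They are below for cdc18 over cdt1 and for targets over regulators, where the medians are mostly cdc18 over yox1, and the other ratios plotted overlap.

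A second pattern followed the library number rather than the genotype. Library 2 was lower than library 1 for 9 of the 10 genes in WT and 8 in Y41F, beside 50.9% and 49.6% of all genes tested. It was lower in both groups for 8 of the 10, whereas 28.9% of all genes tested were lower in library 2 of both groups. The 5 targets were all lower in WT library 2, by a median log2 difference of -0.30, and 4 of 5 in Y41F library 2, by a median of -0.12. The regulators had medians of -0.08 and -0.04, and all genes 0.00 in each group (-0.0039 and 0.0022). The targets thus differed between the WT libraries by more than their median differed between the groups.

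Of the 10 genes, cdc10 alone was higher in library 2 in both groups, by 0.20 in WT and 0.24 in Y41F on the log2 scale. The gene cdc18 was lower in library 2 in WT, by a log2 difference of -0.30, and higher in Y41F, by 0.13. For cdt1 the differences were -0.38 and -0.23, for mik1 -0.31 and -0.12, and for cig2 -0.13 and -0.23. The labels do not say what the library number stands for. In Y41F it goes with the strain, SPBB297 for library 1 and SPBB298 for library 2, so number and strain cannot be told apart there. Both WT libraries are labelled KOR3006. The part of the library number in the comparison was not tested beyond the fit with the number as a block. That fit called 0 of the 10 genes, against 1.71% of all genes, and a count of 0 in 10 is near that share.

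**Figure D4:**
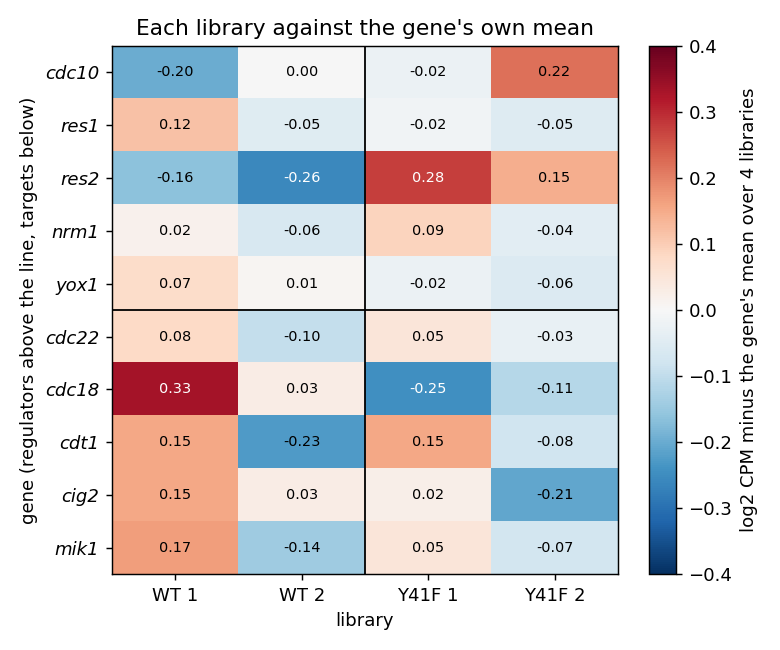
Log2 CPM of each gene in each library minus the gene's mean over the 4 libraries; red is above and blue below that mean, with regulators above the horizontal line and targets below it, and WT left and Y41F right of the vertical line. The gene res2 is below its mean in WT and above it in Y41F, cdc18 has its highest value in WT library 1 (0.33), and most targets are higher in the libraries numbered 1.

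Other genes of the pathway came from lists written down with earlier results of these data known, and they are described by counts and medians. Of 5 co-regulators of MBF none was called (0 at an unadjusted p under 0.05; DESeq2 0), with a median log2 fold change of -0.06. The gene rep2, for a zinc-finger activator that works with Res2, had 87.3 and 87.6 CPM in WT and 83.5 and 78.0 in Y41F. The cyclin genes pas1 and puc1 had log2 fold changes of 0.13 ± 0.16 and -0.14 ± 0.13. Of 10 other target genes none was called (0 at an unadjusted p under 0.05; DESeq2 0), with a median of 0.02 and a narrow range from 0.00 to 0.11. The DNA polymerase alpha gene pol1 had 0.11 ± 0.08, the single-strand binding protein gene ssb1 0.10 ± 0.10, the cohesin gene rad21 0.06 ± 0.08 and tos4, for an FHA-domain protein, 0.03 ± 0.13.

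The next list held the genes for origin recognition and the MCM helicase, the machinery that Cdc18 and Cdt1 bring together, and also cdc45. Of its 13 genes 11 had log2 fold changes below 0, where 51.3% of all genes did so, with a median of -0.10. Both Y41F libraries lay below both WT libraries for 6 of the 13, beside the 18.0% of all genes. None was called by edgeR or DESeq2 and 0 had an unadjusted p under 0.05. Under library size scaling, and on the FPKM scale, 9 of 13 were below 0, where 37.4% of all genes were. Under upper quartile scaling 9 of 13 were also below 0, where 46.2% of all genes were. The helicase genes mcm3 and mcm7 had -0.17 ± 0.08 and -0.01 ± 0.12, and the origin recognition gene orc5 -0.16 ± 0.08.

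Ribonucleotide reductase genes and their control (6 genes, among them spd1 for an inhibitor at -0.06 ± 0.08, ddb1 for a ubiquitin ligase subunit at 0.03 ± 0.09 and csn2 for a signalosome subunit at 0.09 ± 0.10) had a median of 0.03. The 14 genes of Cdc2 and its control had a median of -0.01, with the mitotic cyclin gene cdc13 at 0.01 ± 0.10, the kinase gene cdr2 at -0.05 ± 0.10, the F-box gene pop1 at 0.18 ± 0.10 and srw1 (also ste9), for an activator of cyclin breakdown in G1, at 0.22 ± 0.14. The 10 replication checkpoint genes had a median of 0.01, with the kinase gene rad3 at 0.17 ± 0.08, the clamp loader gene rad17 at -0.10 ± 0.10 and the mediator gene mrc1 at 0.00 ± 0.08. None of these 3 lists held a gene called by edgeR or DESeq2, or one at an unadjusted p under 0.05.

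**Figure D5:**
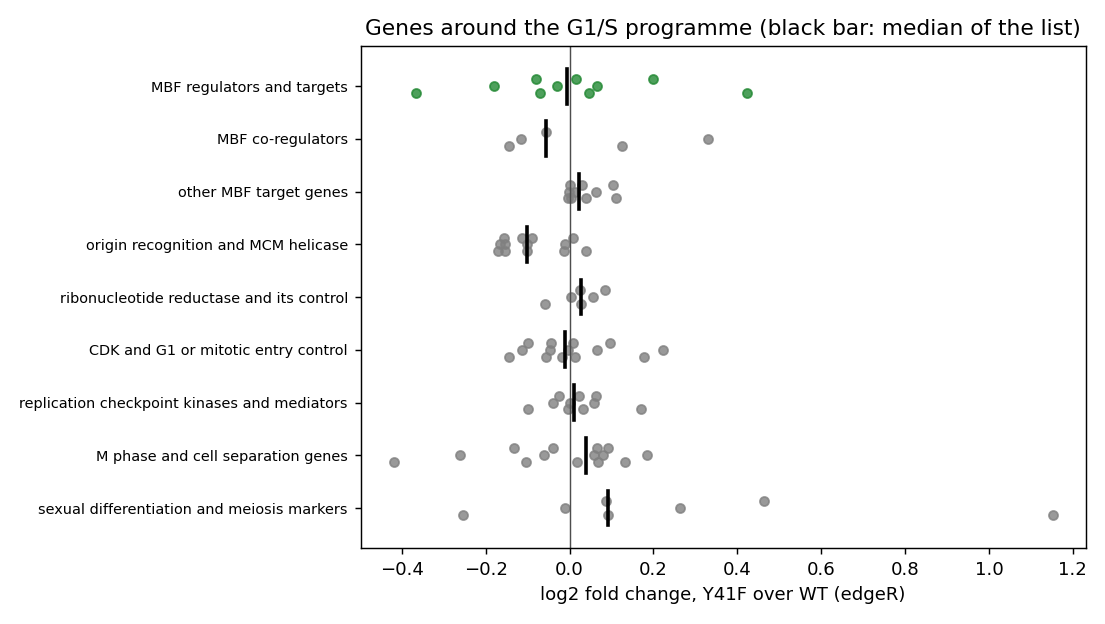
Log2 fold change (Y41F over WT, edgeR) of the 10 genes and of each tested gene in 8 lists around them; each point is a gene and each black bar the list's median. Among the members the 5 targets run from -0.37 (cdc18) to 0.07 and the 5 regulators from -0.08 to 0.42 (res2). Other target genes run from 0.00 to 0.11, co-regulators from -0.14 to 0.33 and M phase genes from -0.42 to 0.18. The widest list is that of sexual differentiation, up to 1.15 for ste11.

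The labels and headers used here do not say whether reads were counted by strand. In the ASM294v3 annotation the coding part of 8 of the 10 genes, all except yox1 and cdt1, is overlapped by at least 1 long non-coding RNA gene, in each case on the opposite strand. For cdc22, cig2 and mik1 the overlap covers the whole coding part, for res2 990 of 1974 bases and for res1 1274 of 1914. Reads from such antisense RNAs cannot be told apart from those of the gene where strand was not used, and this holds for the levels of these 8 genes and for the differences in res2, cdc18 and cig2.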

How the data were processed

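Gene tables of 4 fission yeast libraries were analysed. Per the file headers, the authors deposited an expected count and an FPKM value per gene. The submitters' processing notes name RSEM, Bowtie, BWA and build ASM294v2, with no versions or roles. All deposited gene lengths are multiples of 3, so FPKM rests on coding length. A gene missing from a library's table was taken as 0. Gene names came from the ASM294v3 annotation (5100 identifiers matched); as the builds differ, no coordinates or sequences are given.

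Expected counts were rounded and tested with edgeR 4.0.16 (R 4.3.3) over 5076 genes after its default filter, with TMM scaling, 4 libraries, group as the only term and Benjamini-Hochberg adjustment; standard errors are the fold change divided by the root of F. DESeq2 1.42.0, limma 3.58.1, other scalings and filters, a replicate block and leaving out each library were alternatives. The fits were tested on simulated data. The chi-square between libraries used genes with at least 10 counts in the pair. Precision is limited by n = 2; 702 counts or more stood behind each member's value.

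Named genes are the 10 members and, per list, the 2 most abundant and the 2 with the smallest p, plus genes used in ratios (1 gene under this rule is not reported here); rad21, mei4, rec8 and mfm1 were added after their values were seen. Members and lists were chosen with earlier results of these data known.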

Additional observations from a re-analysis of the deposited data

How the results depend on the processing

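The 10 genes had 0 calls in every alternative except leaving out Y41F library 2, where res2 was called, so leaving out 1 library gave 0 to 1. Over all genes the count of 1 became 11 with upper quartile scaling, 68 with DESeq2, 3 with limma on log2(FPKM + 1), 87 with the replicate block and 0 to 197 on leaving out 1 library. Same-numbered libraries deviated together (correlation across genes 0.45). With 2 pairs and no label for the number, what they share beyond it cannot be told. With the replicate block res2 had an edgeR adjusted p of 0.0670 and cdc18 0.256. The median log2 fold change of the 10 genes was 0.0420 without TMM, 0.0437 on log2(FPKM + 1) and 0.0418 on log2(FPKM + 5), and between -0.11 and 0.10 on leaving out 1 library; that of the targets ran from -0.18 to 0.11. The sign of small values was not stable. For mik1 the value was 0.0203 without TMM, 0.0233 on log2(FPKM + 1) and 0.0203 on log2(FPKM + 5). On leaving out 1 library mik1 ran from -0.18 to 0.14, cdc22 from -0.0700 to 0.109, cdt1 from -0.11 to 0.27, nrm1 from -0.0121 to 0.112 and res1 from -0.152 to 0.0189. The values of cdc10, res2, yox1, cdc18 and cig2 kept their sign in all 12 alternatives. The cause of these shifts was not tested. The ratio of targets to regulators was 1.15 in WT and 0.965 in Y41F when TPM replaced FPKM. Each fit without 1 library assumes that the library left alone in its group varies like the other group's pair.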

Other observations

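Genes of M phase and cell separation give a second view of the cycling population. Of 14 tested none was called by edgeR over all genes (1 at an unadjusted p under 0.05; DESeq2 0), with a median log2 fold change of 0.04, 8 above 0 and 6 below. The gene slp1, for an activator of the anaphase-promoting complex, had 156 and 131 CPM in WT and 96.6 and 118 in Y41F, a log2 fold change of -0.42 ± 0.14 (edgeR adjusted p = 0.633), and edgeR called it in the fit without Y41F library 2, which holds a single Y41F library and called 3.88% of all genes. The anillin-like gene mid2 had 0.18 ± 0.10 and adg2, the most abundant of the list, -0.10 ± 0.16.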
